A study of Mus musculus with 8 samples.

Results

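Ins2, Gad1, Gad2, Ptprn, Rbp3, Mog, Mbp and Tg encode proteins that are targets of the immune response in organ-specific autoimmune disease. These 8 genes, of the 25466 in the count table, were taken by name from the raw counts and followed across all 4 subsets of sorted medullary thymic epithelial cells (mTECs). RNA-seq had been performed on cells of wild-type mice, which the study's methods give as BL6N6 animals of 4 to 6 weeks of age. In every group the gate was CD45neg Epcampos CDR1neg, and the cells were then divided by tetraspanin-8 and by the level of MHC class II into Tspan8neg MHCIIlo, Tspan8neg MHCIIhi, Tspan8pos MHCIIhi and Tspan8pos MHCIIlo, with 2 biological replicates each. Whether a replicate came from 1 mouse or from pooled thymi, and whether same-numbered libraries share animals, is not given in the sources used here. A subset is therefore a sort gate on 2 surface proteins and may hold several kinds of mTEC. P-values measure the spread between these libraries only.

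mTECs transcribe a large set of genes that otherwise belong to single peripheral tissues, which is known as promiscuous gene expression. The peptides made from them are shown to developing T cells, so that clones which bind them strongly are deleted or become regulatory T cells. The autoimmune regulator Aire and the transcription factor Fezf2 are the known drivers of this programme. Loss of thymic expression of insulin or of the retinal protein encoded by Rbp3 is known to favour autoimmunity against pancreatic islets or the retina.

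The proteins fall into groups by tissue. Ins2 encodes the insulin that mouse thymus is known to express. Gad1 and Gad2 encode glutamate decarboxylases 67 and 65, enzymes of GABA synthesis in neurons and islets. Ptprn encodes the islet antigen IA-2 of dense-core vesicles. Mog encodes myelin oligodendrocyte glycoprotein on the outer face of the myelin sheath. Mbp encodes myelin basic protein on its inner face. Rbp3 encodes interphotoreceptor retinoid-binding protein. Tg encodes thyroglobulin, the precursor of thyroid hormone.

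In the GENCODE annotation of GRCm38, Ins2 lies at chr7:142678656-142743381 on the minus strand, Gad1 at chr2:70553072-70602014 and Gad2 at chr2:22622205-22693874, both on the plus strand, and Ptprn at chr1:75247027-75264502 on the minus strand. Mog lies at chr17:37010743-37023398 on the minus strand. Rbp3 at chr14:33954003-33964216, Tg at chr15:66670753-66850721 and Mbp all lie on the plus strand. The values are estimated counts per gene over all its annotated transcripts, so that transcripts of a locus were not separated. This matters for Mbp, whose locus is also known to give golli transcripts in lymphoid cells. An antisense gene shares exon sequence with Ptprn (Gm28294) and with Tg (Gm17140), and the gene Sla lies within Tg on the other strand without shared exons. Neither antisense gene had a row in the count table. The sources differ on whether the libraries kept the strand, so Ptprn and Tg are reported with that uncertainty.

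The upstream sequences below are shown because Gad1 and Gad2 encode the 2 forms of 1 enzyme and were found at unlike levels, and because Mog and Rbp3 are the genes under 3 counts in every library. Of the 8 genes, 5 were used from the RefSeq promoter table of GRCm38.p6, with 6 start sites. Mbp was left out by the selection, whether or not it has an entry. Each line gives the part of the 250 bases before the start that lies outside annotated exons, 5′ to 3′ on the strand of the gene, with CG dinucleotides in capitals.
Gad1, chr2:70561879-70562041, plus strand: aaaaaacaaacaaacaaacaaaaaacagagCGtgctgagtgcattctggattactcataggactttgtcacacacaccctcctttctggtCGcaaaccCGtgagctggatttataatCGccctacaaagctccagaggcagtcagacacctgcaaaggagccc
Gad2, chr2:22622077-22622204, plus strand: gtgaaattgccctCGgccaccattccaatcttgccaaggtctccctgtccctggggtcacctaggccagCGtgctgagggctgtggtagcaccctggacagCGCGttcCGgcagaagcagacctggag
Mog, chr17:37023399-37023648, minus strand: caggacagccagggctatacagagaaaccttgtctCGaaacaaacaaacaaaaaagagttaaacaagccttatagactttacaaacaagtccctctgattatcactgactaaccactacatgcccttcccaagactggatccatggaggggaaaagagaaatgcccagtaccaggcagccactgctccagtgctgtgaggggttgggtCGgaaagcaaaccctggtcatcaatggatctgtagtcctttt
Rbp3, chr14:33953753-33954002, plus strand: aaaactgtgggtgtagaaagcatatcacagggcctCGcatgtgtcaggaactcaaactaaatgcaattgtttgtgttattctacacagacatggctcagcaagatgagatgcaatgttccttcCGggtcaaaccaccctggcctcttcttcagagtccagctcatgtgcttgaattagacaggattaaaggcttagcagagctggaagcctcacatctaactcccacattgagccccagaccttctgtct

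Over the whole 250 bases, Gad1 had 17 CG dinucleotides and Gad2 had 13, against a median of 6 over 32851 windows of 27025 genes. The windows of both Ptprn starts held 12 and 10. Mog and Rbp3 had 2 each, so the genes that were under 3 counts in every library and had a promoter in the table were those with the fewest CG dinucleotides among the 5. Gad2 was also low in counts and lay on the other side of that median. The motif TATAAA, searched on both strands, occurred once in the window of Gad1 and in 12.4% of all windows. GGGCGG, likewise on both strands, occurred once for Gad1, outside the printed stretch, and once for 1 of the Ptprn starts, and in 32.7% of all windows. These are matches of letters over a handful of genes that leave out Mbp, the gene with the highest counts, with no test.

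Total counts ranged from 1941518 to 7783841 per library, a 4.01-fold range that was widest within Tspan8pos MHCIIlo, where replicate 1 is the smallest and replicate 2 the largest library. At 3 counts, the floor used here, the level in CPM, the count scaled to a common library total, is 1.55 in the smallest and 0.385 in the largest. Intervals and floors cover counting error only, because the cDNA was amplified by PCR and no molecular identifiers were counted. The gates were checked on their own genes. The epithelial gene Epcam had between 1557 and 6986 counts in all libraries. Tspan8 had between 13 and 68 counts in the Tspan8neg libraries and between 632 and 2682 in the Tspan8pos libraries, and H2-Ab1 differed by 1.42 between MHCIIhi and MHCIIlo on the log2 scale in Tspan8neg and by 2.33 in Tspan8pos. Replicate 2 of Tspan8neg MHCIIlo stood apart by its thymocyte markers. The summed level of 8 such markers was 1016 CPM there, 362 in replicate 1, and between 65.9 and 203 in the other 6 libraries. The main counts of called genes are given with and without this library.

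Rbp3 and Mog were under 3 counts in all 8 libraries. Among the 25466 genes, 12.3% were at or under 3 counts in every library, and 2 of these 8 genes were. Gad2 was under 3 counts in 6 libraries, at 3 counts in replicate 2 of Tspan8pos MHCIIlo and above 3 only in replicate 2 of Tspan8neg MHCIIhi. Ins2 was under 3 counts in both Tspan8neg MHCIIlo libraries and in replicate 1 of Tspan8pos MHCIIlo. Tg was under 3 counts in both Tspan8pos MHCIIlo libraries. Gad1, Ptprn and Mbp were above 3 counts in all 8, which 51.4% of all genes were. When every library was thinned to the smallest total, Gad2 joined Rbp3 and Mog at or under 3 counts throughout, and Gad1 fell to 2 counts in replicate 2 of Tspan8pos MHCIIlo. Ins2 was then above 3 counts in 3 libraries only, with 3 counts in replicate 2 of Tspan8pos MHCIIhi, and Tg was above 3 in 5 libraries.

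**Figure D1:**
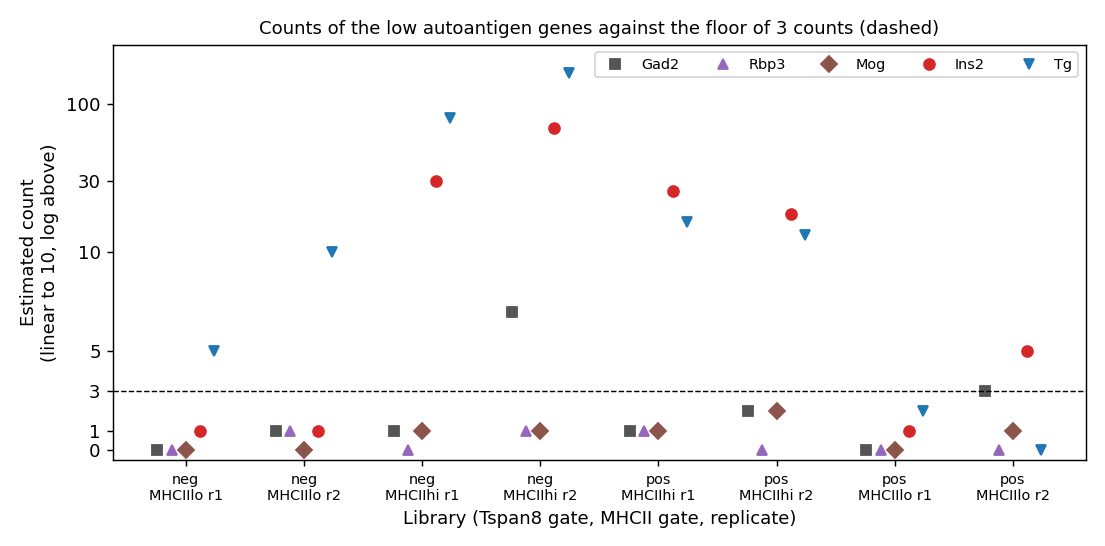
Estimated counts of Gad2, Rbp3, Mog, Ins2 and Tg in each of the 8 libraries, on a scale that is linear to 10 and logarithmic above, with the floor of 3 counts as a dashed line. Rbp3 and Mog stay under the line in every library, Gad2 passes it once with 7 counts, and Ins2 and Tg lie above it in both MHCIIhi subsets, before thinning to equal depth.

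Ins2 had 1 and 1 counts in Tspan8neg MHCIIlo, 30 and 69 in Tspan8neg MHCIIhi, 26 and 18 in Tspan8pos MHCIIhi, and 1 and 5 in Tspan8pos MHCIIlo. All 4 MHCIIhi libraries were above all 4 MHCIIlo libraries. The mean level was 7.54 ± 1.84 CPM (SD, n = 2) in Tspan8neg MHCIIhi and 4.42 ± 1.08 in Tspan8pos MHCIIhi, against 0.616 ± 0.0940 in Tspan8pos MHCIIlo and 0.258 ± 0.0319 in Tspan8neg MHCIIlo. In bulk samples a smaller number of insulin-transcribing cells and less insulin RNA in each cell cannot be told apart, here or for the genes that follow. The paralogue Ins1, the insulin gene used mainly by the pancreas and similar in sequence, had 2 and 3 counts in Tspan8neg MHCIIhi and 0 in the other 6 libraries.

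Gad1 had 16 and 17 counts in Tspan8neg MHCIIlo, 170 and 281 in Tspan8neg MHCIIhi, 53 and 50 in Tspan8pos MHCIIhi, and 5 and 18 in Tspan8pos MHCIIlo. The 4 subsets were separate in CPM, in the order Tspan8neg MHCIIhi at 35.7 ± 0.470 (SD, n = 2), Tspan8pos MHCIIhi at 10.4 ± 0.280, Tspan8neg MHCIIlo at 4.25 ± 0.344 and Tspan8pos MHCIIlo at 2.60 ± 0.206. The last 2 did not differ beyond the threshold. Replicates were close, and the biological coefficient of variation fitted by edgeR was 13.6% for Gad1, against 15.5% for all genes in common.

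Gad2 had 0 and 1 counts in Tspan8neg MHCIIlo, 1 and 7 in Tspan8neg MHCIIhi, 1 and 2 in Tspan8pos MHCIIhi, and 0 and 3 in Tspan8pos MHCIIlo. No subset was separate from its neighbours. Its 15 counts over all libraries correspond to between 0.212 and 0.625 CPM (exact 95% Poisson interval), and the 610 counts of Gad1 to between 14.2 and 16.7. Per kilobase of the longest coding transcript in Tspan8neg MHCIIhi, the mean level was 10.6 CPM for Gad1 and 0.0962 CPM for Gad2. Gad1 was thus above Gad2 by more than the counting error.

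Ptprn had 69 and 88 counts in Tspan8neg MHCIIlo, 91 and 123 in Tspan8neg MHCIIhi, 58 and 78 in Tspan8pos MHCIIhi, and 19 and 51 in Tspan8pos MHCIIlo. It was the most even of the 4 islet genes in its subset means, apart from Gad2, which was too low to order. Mean levels fell in the order 20.1 ± 0.967, 17.3 ± 2.23, 13.7 ± 3.04 and 8.70 ± 2.46 CPM (SD, n = 2) from the first to the last of these subsets, and no neighbours in this order differed beyond the threshold.

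Mog had 0 and 0 counts in Tspan8neg MHCIIlo, 1 and 1 in Tspan8neg MHCIIhi, 1 and 2 in Tspan8pos MHCIIhi, and 0 and 1 in Tspan8pos MHCIIlo. These 6 counts over all libraries correspond to between 0.0557 and 0.330 CPM (exact 95% Poisson interval). No fold is given, since every library was under the floor. The 0 counts in Tspan8neg MHCIIlo allow a level of up to 0.406 CPM, which is 3 counts of the 2 libraries together.

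Mbp had 207 and 312 counts in Tspan8neg MHCIIlo, 551 and 826 in Tspan8neg MHCIIhi, 924 and 688 in Tspan8pos MHCIIhi, and 227 and 816 in Tspan8pos MHCIIlo. It had the highest count of the 8 genes in all libraries. The mean was lowest in Tspan8neg MHCIIlo at 65.9 ± 10.9 CPM (SD, n = 2), 110 ± 6.16 in Tspan8neg MHCIIhi, 118 ± 9.46 in Tspan8pos MHCIIlo and 162 ± 31.3 in Tspan8pos MHCIIhi. The libraries of Tspan8neg MHCIIhi and Tspan8pos MHCIIlo overlapped. Thymocyte markers were highest in Tspan8neg MHCIIlo, where Mbp was lowest, and their part in the Mbp level was not tested.

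Rbp3 had 0 and 1 counts in Tspan8neg MHCIIlo, 0 and 1 in Tspan8neg MHCIIhi, 1 and 0 in Tspan8pos MHCIIhi, and 0 and 0 in Tspan8pos MHCIIlo. It had the fewest counts of the 8 genes, 3 among 39563302 in all, or between 0.0156 and 0.222 CPM (exact 95% Poisson interval). Transcription of Rbp3 was not detectable above the floor at this depth in any subset, and the 0 counts of Tspan8pos MHCIIlo allow up to 0.308 CPM at the same floor.

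Tg had 5 and 10 counts in Tspan8neg MHCIIlo, 80 and 161 in Tspan8neg MHCIIhi, 16 and 13 in Tspan8pos MHCIIhi, and 2 and 0 in Tspan8pos MHCIIlo. Both libraries of Tspan8neg MHCIIhi stood above all others, and the subsets did not overlap. The 2 MHCIIlo subsets were only narrowly apart, at 1.40 CPM (5 counts) against 1.10 CPM (2 counts, under the floor) in their nearest libraries. Their difference was not called (edgeR, adjusted p = 0.0399). The mean levels were 18.6 ± 2.83 CPM (SD, n = 2) in Tspan8neg MHCIIhi, 2.91 ± 0.385 in Tspan8pos MHCIIhi, 1.88 ± 0.674 in Tspan8neg MHCIIlo and 0.550 ± 0.777 in Tspan8pos MHCIIlo. Sla, on the other strand within Tg, had 233 counts in replicate 2 of Tspan8neg MHCIIlo and between 5 and 89 in the other 7 libraries. Whether reads from the other strand entered the Tg counts was not tested.

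**Figure D2:**
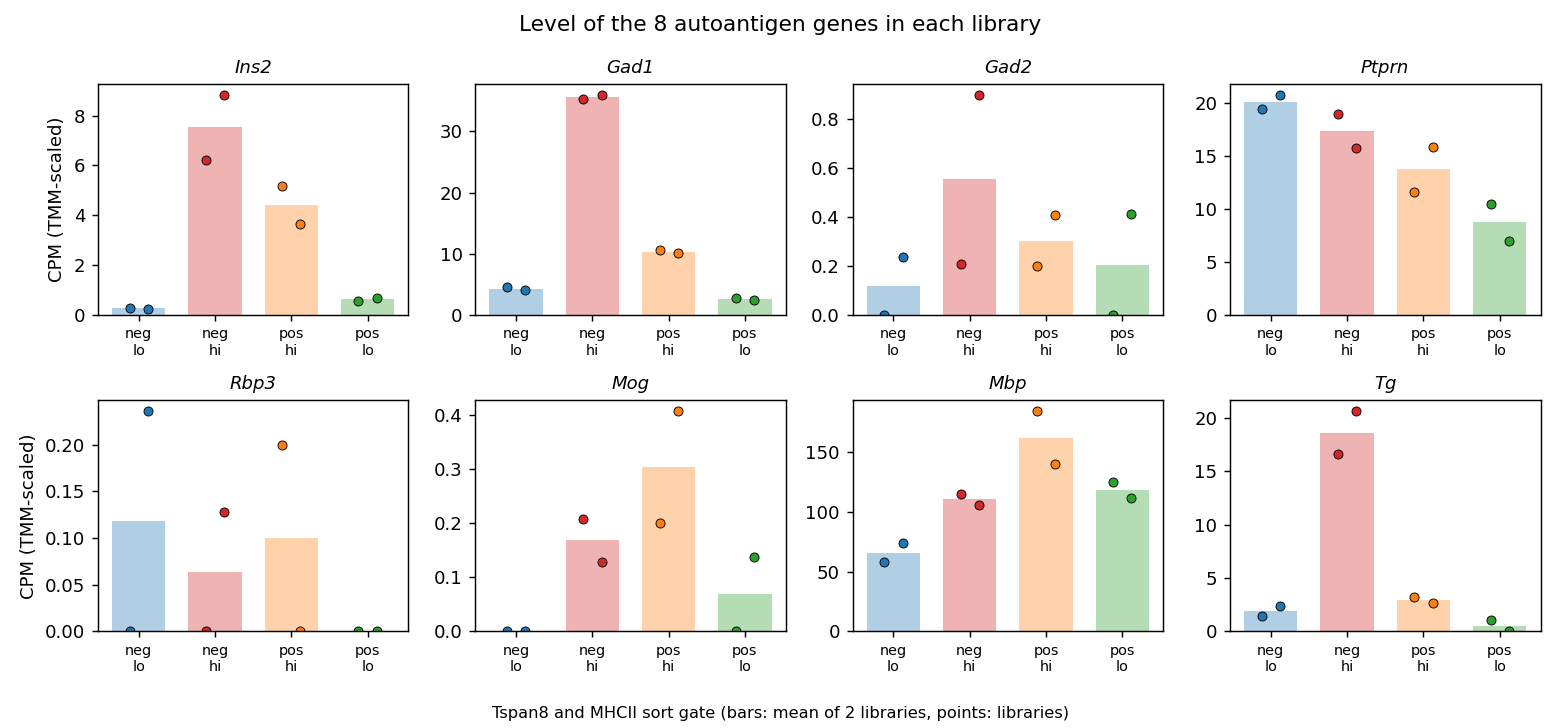
Level of each of the 8 genes in CPM scaled by the trimmed mean of M-values, with a bar for the mean of 2 libraries and a point for each library, by Tspan8 gate (neg, pos) and MHCII gate (lo, hi). Ins2, Gad1 and Tg are highest in Tspan8neg MHCIIhi, Ptprn in Tspan8neg MHCIIlo and Mbp in Tspan8pos MHCIIhi, while the axes of Gad2, Rbp3 and Mog end below 1 CPM.

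Levels of different genes were compared per kilobase of their longest coding transcript, since longer transcripts gather more reads. On this scale, and in the subset where each was highest, Mbp reached 33.8 CPM per kilobase, Gad1 10.6, Ins2 8.22, Ptprn 5.65 and Tg 2.20. These levels lay above 90.6%, 76.6%, 71.9%, 64.4% and 49.3% of all genes with a length in the same subset. Ins2, with a transcript of 918 bases, moved up in this order and Tg, with 8454 bases, moved down. The maxima were spread over the subsets. Of the 5 genes that passed the filter on low counts, 3 had their highest mean in Tspan8neg MHCIIhi, 1 in Tspan8neg MHCIIlo and 1 in Tspan8pos MHCIIhi, and of all 25466 genes 32.9% were highest in Tspan8neg MHCIIhi.

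Differences were tested for Ins2, Gad1, Ptprn, Mbp and Tg, which were among the 17006 genes that passed edgeR's filter. Gad2, Rbp3 and Mog did not pass it. In a fit without that filter, which is given once for completeness, the lowest adjusted p of these 3 genes in any comparison was 0.271 (edgeR's quasi-likelihood test). A gene was called when its adjusted p was under 0.01 and its log2 fold change was at least 1 in size. A gene that passed only because it is high in some subsets had to differ from the others, so the counts of calls are descriptions of these genes. Ins2 and Tg were such genes, with at most 5 and 10 counts in any MHCIIlo library, and they passed through the MHCIIhi libraries. Their calls of MHCIIhi over MHCIIlo, and the adjusted p given with them, are therefore descriptions as well. The comparisons share libraries with each other and are given side by side.

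Between MHCIIhi and MHCIIlo cells that lack Tspan8, where the study's scheme sets mature cells against immature and late ones, 3 of the 5 tested genes rose. Of all 17006 genes 22.7% were called, 13.1% as higher and 9.67% as lower. Their median log2 difference was 3.07, against -0.04 over all genes. Gad1 was higher by 3.07 ± 0.26 (log2 fold change ± SE, edgeR's quasi-likelihood test, adjusted p = 7.08e-06, n = 2 against 2). Tg was higher by 3.27 ± 0.54 (edgeR, adjusted p = 0.000668). Ins2 was called too (edgeR, adjusted p = 0.000215), and because its lower group held 2 counts in all, its size is given as a ratio of pooled counts, 30.6-fold with an exact interval of 8.26 to 256. Mbp differed by 0.74 ± 0.17 (edgeR, adjusted p = 0.00566), which is under the limit on the fold change, and Ptprn by -0.22 ± 0.26 (edgeR, adjusted p = 0.535). Tg lost its call without replicate 2 of Tspan8neg MHCIIhi (3.20, edgeR, adjusted p = 0.0119). Without replicate 2 of Tspan8neg MHCIIlo, the library with the most thymocyte RNA, 3 genes were called again. Markers of other cell types also moved with this comparison. The 7 dendritic cell and macrophage markers summed to 85.5 and 94.6 CPM in Tspan8neg MHCIIhi and to between 16.0 and 56.8 in the other 6 libraries, and of the 6 tested 2 rose and 0 fell. The 5 endothelial markers summed to between 88.7 and 128 CPM in the MHCIIlo libraries and between 23.1 and 29.1 in the MHCIIhi libraries, and 3 fell in MHCIIhi cells of Tspan8neg. Of the 8 thymocyte markers 6 fell in the same comparison. Their part in the values of the autoantigen genes was not tested.

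Within Tspan8pos cells, MHCIIhi against MHCIIlo, 2 genes rose. Of all genes 7.21% were called, 4.59% as higher and 2.62% as lower. Gad1 was higher by 2.02 ± 0.30 (edgeR, adjusted p = 0.000942, n = 2 against 2). Ins2 was higher by 2.72 ± 0.59 (edgeR, adjusted p = 0.00936), or 6.74-fold in pooled counts with an exact interval of 2.86 to 19.4. Tg differed by 3.51 ± 0.93 and was not called (edgeR, adjusted p = 0.0249). Its lower group held 2 and 0 counts, and the pooled ratio was 13.3 with an exact interval of 3.37 to 115. The values of Mbp, 0.46 ± 0.17 (edgeR, adjusted p = 0.0917), and of Ptprn, 0.75 ± 0.30 (edgeR, adjusted p = 0.115), did not pass. Tg was called as well, making 3, without replicate 2 of Tspan8neg MHCIIlo (3.54, edgeR, adjusted p = 0.00875) or without replicate 1 (3.57, edgeR, adjusted p = 0.00849), and also without replicate 1 of Tspan8pos MHCIIlo, which left 1 library with 0 counts. All 5 differences were positive, with a median of 2.02 against 0.01 over all genes. The call of Ins2 was lost without either Tspan8neg MHCIIhi library, either Tspan8pos MHCIIhi library or either Tspan8pos MHCIIlo library, with log2 values from 2.47 to 2.95 and adjusted p between 0.0229 and 0.126, and that of Gad1 without replicate 2 of Tspan8pos MHCIIlo (1.91, edgeR, adjusted p = 0.0387).

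Tspan8 was then compared at the same level of MHCII. Among MHCIIlo cells, Ptprn was the only 1 of the 5 genes called and fell by 1.30 on the log2 scale in Tspan8pos cells, with an SE of 0.29 (edgeR, adjusted p = 0.00458, n = 2 against 2). Of all genes 21.4% were called, 12.1% as higher and 9.34% as lower. This call of Ptprn was lost with DESeq2 (adjusted p = 0.0154) and in an edgeR fit of only the libraries compared (adjusted p = 0.0205), each of which left 0 genes called. It was also lost without replicate 2 of Tspan8pos MHCIIlo (-0.94, edgeR, adjusted p = 0.0983) and without replicate 1 of Tspan8neg MHCIIhi (-1.30, edgeR, adjusted p = 0.0101). Mbp differed by 0.83 ± 0.18 (edgeR, adjusted p = 0.00326), under the fold limit, and without replicate 2 of Tspan8neg MHCIIlo by 1.01 and was called (edgeR, adjusted p = 0.00111), which made 2 calls. Gad1 differed by -0.74 ± 0.34 (edgeR, adjusted p = 0.107) and Ins2 by 1.26 ± 0.94 (edgeR, adjusted p = 0.326), the latter on 6 against 2 pooled counts. Tg differed by -2.90 ± 1.01 (edgeR, adjusted p = 0.0399), on 2 against 15 pooled counts, a ratio of 8.79 in favour of Tspan8neg with an exact interval of 2.04 to 79.2. Without replicate 1 of Tspan8pos MHCIIlo only the library with 0 counts of Tg was left in that subset, and Tg was then called (edgeR, adjusted p = 0.00472).

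Among MHCIIhi cells, 2 genes fell in Tspan8pos. Of all genes 18.5% were called, 11.0% as higher and 7.45% as lower. Gad1 fell by 1.78 on the log2 scale with an SE of 0.22 (edgeR, adjusted p = 1.0e-04, n = 2 against 2), and Tg fell by 2.67 with an SE of 0.50 (edgeR, adjusted p = 0.00153). Ins2 differed by -0.78 ± 0.42 (edgeR, adjusted p = 0.172), Ptprn by -0.33 ± 0.26 (edgeR, adjusted p = 0.347) and Mbp by 0.56 ± 0.17 (edgeR, adjusted p = 0.0226). Mbp was the only gene of the 5 with a positive value here, and its Tspan8pos libraries were both above its Tspan8neg libraries. Without replicate 2 of Tspan8neg MHCIIlo 2 genes were called again. Tg lost its call without replicate 2 of Tspan8neg MHCIIhi, replicate 1 of Tspan8pos MHCIIhi or replicate 2 of Tspan8pos MHCIIhi, with log2 values from -2.79 to -2.53 and adjusted p between 0.0174 and 0.0273 (edgeR).

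**Figure D3:**
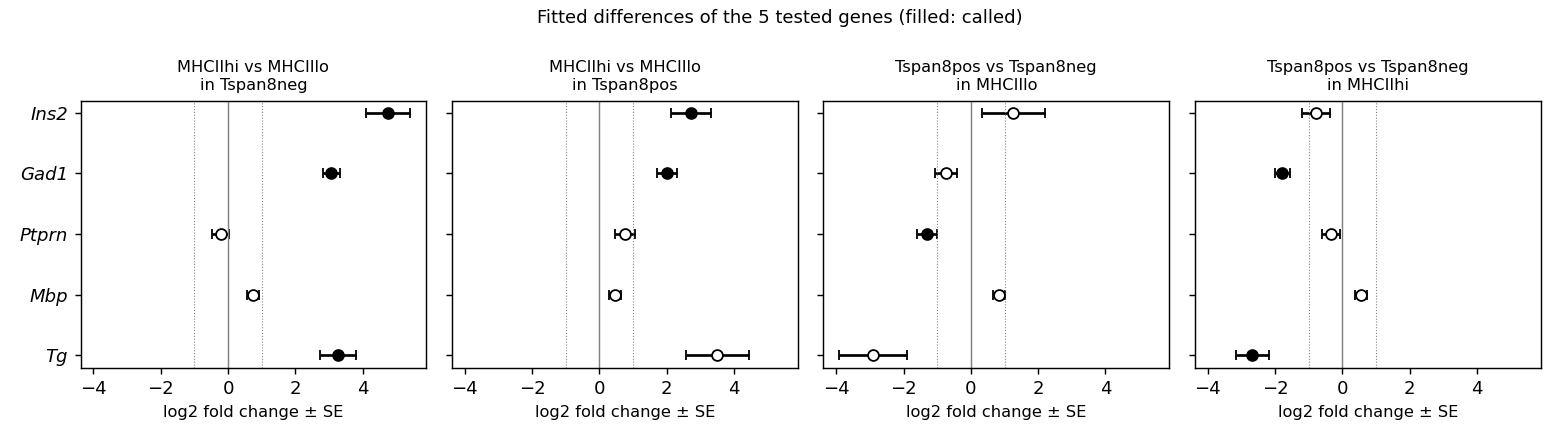
Fitted log2 fold change ± SE of the 5 tested genes in 4 comparisons, with filled points for genes called by edgeR's quasi-likelihood test, a solid line at 0 and dotted lines at the fold limit of 1. Gad1, Ins2 and Tg lie right of the limit in both MHCII comparisons, and Gad1 and Tg lie left of it in the Tspan8 comparison within MHCIIhi.

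The interaction, which tests whether the Tspan8 difference in MHCIIlo cells differs from that in MHCIIhi cells, called 0 of the 5 genes with edgeR and 0 with DESeq2, while 4.60% of all genes were called with edgeR, 2.36% with a positive and 2.24% with a negative value. At an unadjusted p under 0.05 there were 2, Gad1 at 1.05 ± 0.41 (edgeR, adjusted p = 0.128) and Ptprn at -0.97 ± 0.39 (edgeR, adjusted p = 0.142). In CPM, Ins2 was higher in Tspan8pos than in Tspan8neg in every MHCIIlo library and lower in every MHCIIhi library. Its interaction was 2.04 ± 1.03 (edgeR, adjusted p = 0.236). In MHCIIlo it had only 1 and 5 counts in Tspan8pos against 1 and 1 in Tspan8neg. The pooled ratio of Tspan8neg to Tspan8pos was 0.391 there with an exact interval of 0.0386 to 2.19, so this direction was not resolved. Ptprn was lower in MHCIIhi than in MHCIIlo in every Tspan8neg library and higher in every Tspan8pos library. The interaction again called 0 without replicate 2 of Tspan8neg MHCIIlo. A p that misses the threshold does not show that these genes responded alike in both settings.

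Subsets that differ in both markers were compared as well. Between Tspan8pos MHCIIlo and Tspan8neg MHCIIhi, 4 genes fell and 29.3% of all genes were called. Tg had 2 pooled counts in the first and 241 in the second, a ratio of 87.4 in favour of Tspan8neg MHCIIhi with an exact interval of 23.9 to 726. Gad1 fell by 3.80 with an SE of 0.28 (edgeR, adjusted p = 1.11e-06, n = 2 against 2), Ins2 fell by 3.50 with an SE of 0.57 (edgeR, adjusted p = 0.000419) and Ptprn fell by 1.08 with an SE of 0.29 (edgeR, adjusted p = 0.00906). All 4 were called again without replicate 2 of Tspan8neg MHCIIlo. Without replicate 2 of Tspan8pos MHCIIlo, 2 genes were called, and Ins2 had -3.72 (edgeR, adjusted p = 0.0139) and Ptprn -0.71 (edgeR, adjusted p = 0.168). The Ptprn call was likewise lost without any single library of Tspan8neg MHCIIhi, Tspan8pos MHCIIhi or Tspan8pos MHCIIlo, with adjusted p between 0.0103 and 0.168 (edgeR).

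Between Tspan8pos MHCIIhi and Tspan8neg MHCIIlo, Ins2, Gad1 and Mbp rose. Of all genes 24.7% were called, 14.4% as higher and 10.3% as lower. Mbp was higher by 1.29 ± 0.17 (edgeR, adjusted p = 0.000135, n = 2 against 2) and Gad1 by 1.28 ± 0.27 (edgeR, adjusted p = 0.00275). Ins2 had 44 pooled counts against 2, a ratio of 17.3 with an exact interval of 4.50 to 147. The call of Gad1 was lost without replicate 2 of Tspan8neg MHCIIlo, replicate 2 of Tspan8neg MHCIIhi or either Tspan8pos MHCIIhi library, with adjusted p between 0.0101 and 0.0163 (edgeR). Without the first of these, 2 genes were called in place of 3. Tg differed by 0.60 ± 0.63 (edgeR, adjusted p = 0.455) and Ptprn by -0.55 ± 0.27 (edgeR, adjusted p = 0.113).

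For context, 55 further autoantigen genes were listed by tissue, of which 43 passed the filter. As shown by the map of relative levels, 38 of the 55 had their highest mean in Tspan8neg MHCIIhi, or 69.1%, against 32.9% of all genes, and 38 had it there again without replicate 2 of Tspan8neg MHCIIlo. Between MHCIIhi and MHCIIlo in Tspan8neg, 19 rose and 3 fell, and the median log2 difference of the 43 was 1.53, against 13.1% and 9.67% of all genes called in those directions and a median of -0.04. In Tspan8pos, 6 rose and 2 fell, where 4.59% and 2.62% of all genes did, with a median of 0.78, or 0.61 when genes with 0 counts in a whole subset are set to their bound. Across Tspan8 in MHCIIhi, 4 were higher in Tspan8pos and 7 lower, where 11.0% and 7.45% of all genes were, with a median of -0.89. In MHCIIlo, 8 were higher and 4 lower, where 12.1% and 9.34% of all genes were, with a median of -0.01. Of the 43, 4 higher or 4 lower is close to the share of all genes in that direction. Some of the 43 passed the filter only through Tspan8neg MHCIIhi. An example is S100b, with 31 pooled counts there, 5 in Tspan8pos MHCIIhi and 0 in each MHCIIlo subset. In comparisons with Tspan8neg MHCIIhi such a gene could be called only as higher there. These counts and medians, and those of the lists below, are therefore descriptions. Without replicate 2 of Tspan8neg MHCIIlo, 46 of the 55 were tested. Across MHCII, 17 rose and 4 fell in Tspan8neg, and 12 rose and 2 fell in Tspan8pos. Across Tspan8, 7 were higher and 7 lower in Tspan8pos within MHCIIhi, and 7 higher and 5 lower within MHCIIlo.

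The islet list was split. Iapp, the amyloid polypeptide co-secreted with insulin, rose in Tspan8pos cells by 2.37 ± 0.22 in MHCIIlo (edgeR, adjusted p = 9.55e-06) and by 3.01 ± 0.21 in MHCIIhi (edgeR, adjusted p = 1.3e-06). It had 51 and 92 counts in Tspan8neg MHCIIlo, 85 and 178 in Tspan8neg MHCIIhi, 763 and 879 in Tspan8pos MHCIIhi and 155 and 743 in Tspan8pos MHCIIlo, so its maximum lay in another subset than that of Ins2. Chga, the chromogranin of dense-core vesicles, was highest in Tspan8neg MHCIIlo, at 564 ± 104 CPM (SD, n = 2) against 46.0 to 76.6 in the other subset means. Ptprn also had its highest mean there, but at 20.1 CPM against 17.3 in Tspan8neg MHCIIhi, which did not differ beyond the threshold (edgeR, adjusted p = 0.535). Ptprn2, the relative of Ptprn, fell in MHCIIhi cells by 1.51 in Tspan8neg with an SE of 0.24 (edgeR, adjusted p = 0.000475). The zinc transporter gene Slc30a8, another islet antigen, had 1 and 1 counts in Tspan8neg MHCIIhi and 0 elsewhere.

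Myelin and nerve genes were likewise unlike each other. Cnp, an enzyme of myelin, rose in MHCIIhi cells of Tspan8neg by 1.53 ± 0.20 (edgeR, adjusted p = 0.000132). Aqp4, the water channel targeted in neuromyelitis optica, rose in Tspan8pos cells by 4.51 ± 0.41 in MHCIIlo (edgeR, adjusted p = 8.36e-06) and by 4.15 ± 0.39 in MHCIIhi (edgeR, adjusted p = 1.12e-05). Mag, the myelin-associated glycoprotein, had 147 and 462 counts in Tspan8pos MHCIIlo and between 33 and 81 in the other 6 libraries. Mobp, a structural myelin protein, had 12 and 15 counts in Tspan8neg MHCIIhi and 0 to 2 in the others. The summed level of 8 glia and nerve markers, some of which are on these lists as well, was between 46.2 and 57.3 CPM in Tspan8neg MHCIIhi and between 19.9 and 32.7 in the other 6 libraries. Mbp was not highest in that subset, and the part of these markers was not tested.

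Retinal and thyroid genes were mostly low. Rcvrn, the photoreceptor protein recoverin, had 28 and 44 counts in Tspan8neg MHCIIhi and 0 and 0 in Tspan8neg MHCIIlo, so it was at least 14.8-fold higher against a floor of 3 counts over the group. Rbp3 thus stayed under the floor in libraries in which this photoreceptor gene passed it. Tshr, the thyrotropin receptor, had 6 and 5 counts in Tspan8neg MHCIIhi, 0 and 6 in Tspan8pos MHCIIhi and 0 in all 4 MHCIIlo libraries. Slc26a4, the iodide and chloride transporter pendrin, rose in MHCIIhi cells in Tspan8neg, from 9 and 3 to 61 and 141 counts (edgeR, adjusted p = 0.000267), and by 2.13 ± 0.40 in Tspan8pos (edgeR, adjusted p = 0.00432). The 8 thyroid and parathyroid markers summed to 190 and 199 CPM in Tspan8neg MHCIIlo, where parathyroid hormone gene Pth alone had 476 and 648 counts, and to between 30.5 and 58.8 CPM elsewhere. Tg was highest where that sum was low.

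The remaining lists held antigens of other endocrine organs, gut, skin, muscle, joint and kidney. Of 11 endocrine, gonadal and gut genes 10 were tested, and 7 rose and 0 fell with MHCII in Tspan8neg, against 3 and 0 in Tspan8pos. Of all genes 13.1% rose and 9.67% fell in the first of these comparisons and 4.59% and 2.62% in the second. With replicate 2 of Tspan8neg MHCIIlo left out, 7 rose and 1 fell in Tspan8neg, and 6 and 0 in Tspan8pos. Th, tyrosine hydroxylase, had 3 and 1 counts in Tspan8neg MHCIIlo, 70 and 126 in Tspan8neg MHCIIhi, 13 and 15 in Tspan8pos MHCIIhi, and 1 and 2 in Tspan8pos MHCIIlo, so its order across MHCII was that of Ins2. Atp4b, a subunit of the gastric proton pump, had 35 and 55 counts in Tspan8neg MHCIIhi and 0 in all MHCIIlo libraries, at least 18.6-fold higher than in Tspan8neg MHCIIlo. Of 8 tested skin and pigment genes, 4 rose and 1 fell with MHCII in Tspan8neg, with and without that library. Dsg3, the desmoglein targeted in pemphigus vulgaris, rose in Tspan8pos by 4.02 ± 0.29 in MHCIIlo (edgeR, adjusted p = 1.81e-06) and by 4.70 ± 0.30 in MHCIIhi (edgeR, adjusted p = 8.87e-07). Of 8 muscle, joint and kidney genes, all tested, 2 rose with MHCII in Tspan8neg, and in Tspan8pos cells 2 fell in MHCIIlo and 3 in MHCIIhi, where 9.34% and 7.45% of all genes fell. These 3 counts were equal without that library. With lists of at most 11 genes, a single gene moves these shares widely.

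**Figure D4:**
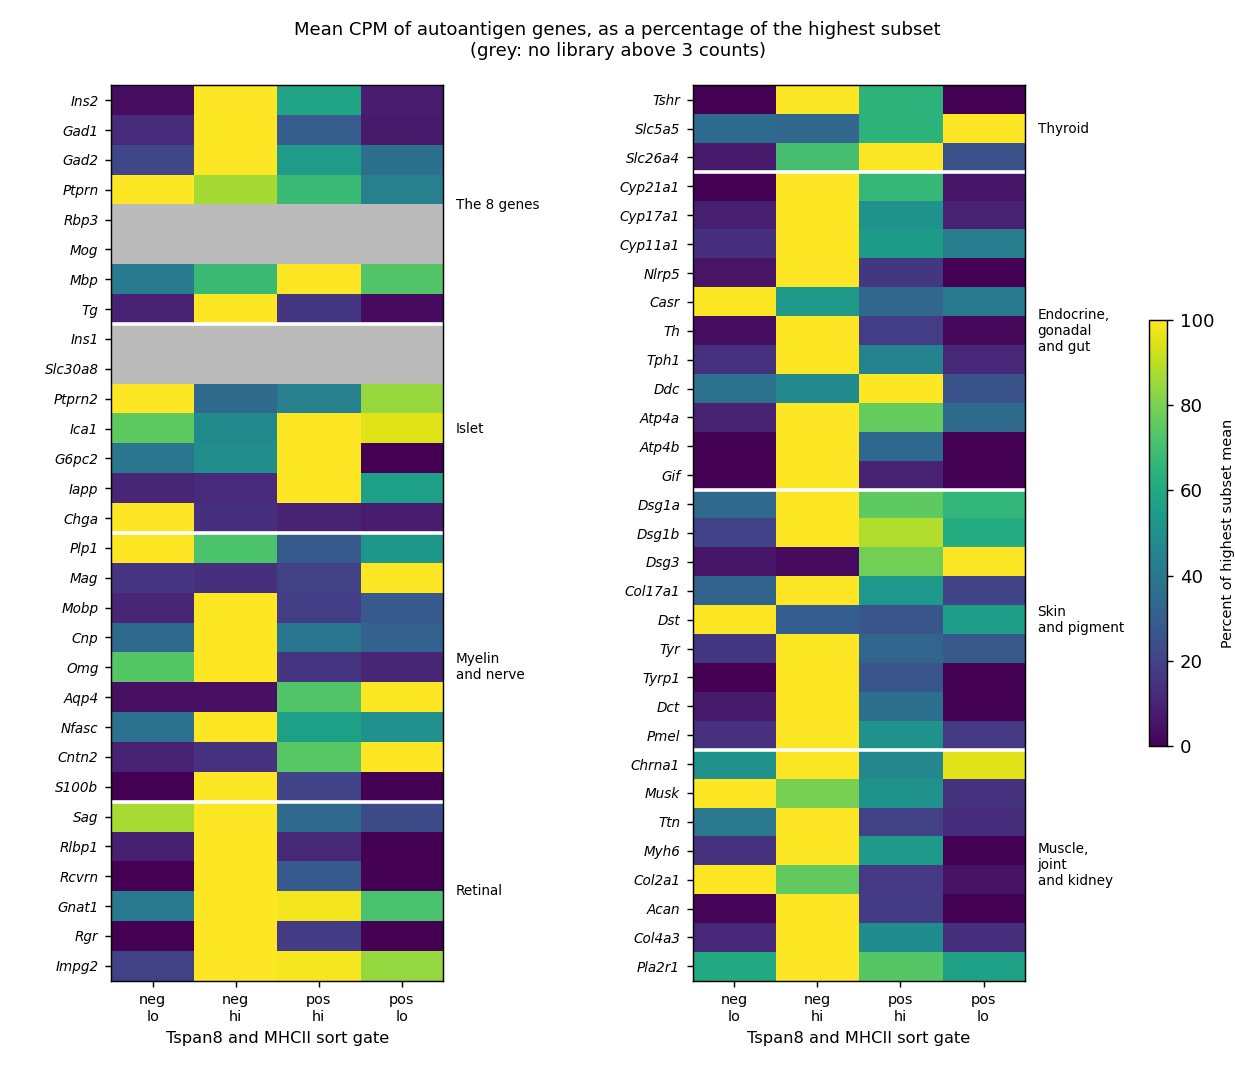
Mean CPM of the 8 genes and of further autoantigen genes in each subset, as a percentage of the gene's highest subset mean, by Tspan8 gate (neg, pos) and MHCII gate (lo, hi); genes with no library above 3 counts are grey. Tspan8neg MHCIIhi holds the maximum of most of the further genes (38 of all 55, with the grey Ins1 and Slc30a8 and some that are not drawn), with exceptions such as Iapp, Aqp4, Mag and Dsg3, which are highest in a Tspan8pos subset.

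The transcription factors that drive such genes in their own tissues were listed as well. Of 8 islet factors 5 passed the filter. In MHCIIhi cells 1 rose in Tspan8neg and 1 in Tspan8pos, where 13.1% and 4.59% of all genes did. This was Insm1, an endocrine zinc finger factor, with 2.00 ± 0.21 (edgeR, adjusted p = 2.84e-05) and 2.39 ± 0.26 (edgeR, adjusted p = 0.000109). In Tspan8pos MHCIIlo cells 4 of them fell, Insm1, Isl1, Mafa and Rfx6, by values between 1.42 and 3.43 on the log2 scale, where 9.34% of all genes fell. When replicate 2 of Tspan8neg MHCIIlo was left out 3 fell, and Rfx6 was not called (edgeR, adjusted p = 0.0497). Pdx1, which binds the insulin promoter in beta cells, had 4 and 6 counts in Tspan8neg MHCIIhi, 2 and 7 in Tspan8pos MHCIIhi and 0 in the MHCIIlo libraries. Sox10 and Myrf, factors of oligodendrocytes, rose with MHCII in Tspan8neg, Sox10 from 2 and 1 to 25 and 38 counts and Myrf by 2.42. Crx and Nrl, factors of photoreceptors, rose in the same comparison, Nrl from 3 and 0 to 36 and 50 counts. Crx had 19 and 19 counts there and 0 and 0 in Tspan8neg MHCIIlo, at least 7.84-fold. Of the thyroid factors, Pax8 rose from 0 and 1 to 15 and 53 counts and Foxe1 fell by 3.52 in that comparison (edgeR, adjusted p = 0.0055 and 0.00203). There, 13.1% of all genes rose and 9.67% fell. None of Sox10, Crx, Nrl, Pax8 and Foxe1 was called in this comparison without replicate 2 of Tspan8neg MHCIIlo, with adjusted p between 0.0105 and 0.0338 (edgeR), while Myrf was.

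Aire had 756 and 868 counts in Tspan8neg MHCIIlo, 12783 and 19320 in Tspan8neg MHCIIhi, 2019 and 2663 in Tspan8pos MHCIIhi, and 27 and 259 in Tspan8pos MHCIIlo. Relative to its maximum in Tspan8neg MHCIIhi, Aire was at 18.4% in Tspan8pos MHCIIhi, 8.12% in Tspan8neg MHCIIlo and 0.978% in Tspan8pos MHCIIlo. The same shares were 29.0%, 11.9% and 7.29% for Gad1, 15.6%, 10.1% and 2.95% for Tg, and 58.6%, 3.43% and 8.17% for Ins2. The lowest of these shares for Ins2 and Tg rest on 2 counts each. The means of Gad1 and Tg had the order of Aire, and those of Ins2 departed from it between the MHCIIlo subsets. That departure rests on 2 against 6 pooled counts and was not called (edgeR, adjusted p = 0.326). For Gad1 the same subsets did not differ beyond the threshold (edgeR, adjusted p = 0.107). Nor did Tspan8pos MHCIIhi and Tspan8neg MHCIIlo for Tg (edgeR, adjusted p = 0.455). Whether Ins2 differs from Gad1 and Tg in this order was therefore not resolved. Fezf2 varied less, at 75.7%, 40.3% and 37.5%. Over the 8 libraries, log2 CPM correlated with that of Aire at r = 0.94 for Gad1, 0.89 for Tg, 0.77 for Ins2, 0.63 for Ptprn and 0.06 for Mbp. These are descriptions over 8 points that share 4 subset means and their library depth.

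Each tested gene had closer neighbours than Aire among the 11047 or 11048 candidates, other genes whose mean level reached 10 CPM. By Pearson's r over the 8 libraries, the pattern most like Ins2 was that of Serpinb9 (0.994), followed by Pglyrp2 (0.993) and Cilp (0.991), and Aire came 1036th. For Gad1 they were Adgb (0.996) and Vwa5a (0.995), with Aire 297th. Tg was nearest to Pcp4l1 (0.991), Adcy1 (0.988) and Dnah2 (0.982), with Aire 339th. Ptprn was nearest to Zfp212 (0.973), Sez6 (0.961) and Camkv (0.959). For Mbp the first was Sqle (0.978), an enzyme of cholesterol synthesis, then Emc7 (0.978) and Mdh1 (0.978), with Aire 5347th.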

How the data were processed

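The authors quantified single-end reads with Salmon 1.8.0 on a Gencode mouse transcriptome and deposited 1 table of whole-number estimated counts per gene and library, without normalization; the rounding step is not given in the sources used here. The authors tested with DESeq2 1.30.0. The paper describes cDNA preamplification with tagmentation and the labels a stranded mRNA kit. Libraries were grouped by the subset in the sample titles, and all 8 columns were used. Identifiers were matched to GENCODE symbols (25336 of 25466).

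Here, edgeR 4.0.16 in R 4.3.3 (limma 3.58.1 as its base) was run on the expected counts as deposited, with scaling by the trimmed mean of M-values (TMM) and filterByExpr. The 8 libraries were fitted together with 4 subset means. P-values were two-sided and Benjamini-Hochberg adjusted over 17006 genes by the quasi-likelihood test, and a call needed an adjusted p under 0.01 together with a log2 fold change of size 1 or more. An exact permutation test of 2 against 2 cannot go below 0.333, so none was run. Levels are CPM on TMM-scaled totals. Total counts ranged from 1941518 to 7783841, so 3 counts equal 1.55 to 0.385 CPM. Ratios of pooled counts carry exact conditional 95% intervals. Lengths are of the longest coding transcript. The script was tested on simulated data. Alternatives were DESeq2 1.42.0, its size factors, other filters, a replicate block, fewer libraries, other thresholds and thinning. Named genes are the 8, genes of the lists that were called or under the floor, further ones of these lists chosen after their values were seen (Tshr, Mobp, Pdx1), sort markers and the 3 nearest patterns; some genes so chosen are not reported here. The 8 genes and all lists were chosen with earlier results of these data known.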

Additional observations from a re-analysis of the deposited data

Results flagged for a closer look

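Among the 55 further autoantigen genes, the Tspan8 difference itself differed between MHCIIlo and MHCIIhi cells for 5 of the 43 tested, by the interaction test of edgeR, where 4.60% of all genes were called, 2.36% with a positive and 2.24% with a negative value. Without replicate 2 of Tspan8neg MHCIIlo, the library with the most thymocyte RNA, these 5 were called again, with Cnp (1.58) and Col2a1 (-2.01) in addition. Values are the log2 fold change of Tspan8pos over Tspan8neg in MHCIIlo minus that in MHCIIhi. Chga, of dense-core vesicles, had -3.12 ± 0.37 (SE, edgeR, adjusted p = 0.000674), with 1745 and 2702 counts in Tspan8neg MHCIIlo and between 88 and 653 in the other 6 libraries. Mag, the myelin-associated glycoprotein, had 2.15 ± 0.37 (edgeR, adjusted p = 0.00429), with its maximum in Tspan8pos MHCIIlo. Nfasc, an adhesion protein of the node of Ranvier, had 1.23 ± 0.22 (edgeR, adjusted p = 0.00486). The desmogleins Dsg1a and Dsg1b, targets in pemphigus foliaceus, were also in this group, Dsg1a at 1.35 ± 0.25 (edgeR, adjusted p = 0.00671) and Dsg1b at 1.76 ± 0.34 with an adjusted p of 0.00804 by the same test. They are close paralogues, so reads could be split between them. None of the 8 genes of the report was among the interaction calls.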

How the results depend on the processing

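With 2 libraries per subset and as few as 1941518 counts in a library, levels near 3 counts are not resolved, and calls of Ins2 and Tg rest on few reads. Of the log2 values of the 5 tested genes recomputed under the alternatives, 536 kept their direction and side of the threshold, 34 lost a call, 10 gained one and 8 changed sign. The count of the 8 genes called in Tspan8pos against Tspan8neg within MHCIIlo was 1, and became 0 with DESeq2 and with only the libraries compared, 2 with an adjusted p under 0.05, 2 with no fold limit, and 0 to 2 when a library was left out. Within MHCIIhi it was 1 to 2 when a library was left out. For MHCIIhi against MHCIIlo in Tspan8pos it was 1 with DESeq2 and 1 after thinning, in place of 2, and 0 to 3 when a library was left out. For Tspan8pos MHCIIlo against Tspan8neg MHCIIhi it was 2 to 4. Of the 55 further genes, calls across Tspan8 in MHCIIhi went from 11 to 17 with only the libraries compared, to 18 with an adjusted p under 0.05 and to 7 to 14 when a library was left out. Across MHCII in Tspan8pos they went from 8 to 5 after thinning, to 15 with an adjusted p under 0.05 and to 1 to 14 when a library was left out. The cause was not tested.

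Directions turned only for differences that were not called. Ptprn across MHCII in Tspan8neg was 0.0029 on the log2 scale without replicate 2 of Tspan8neg MHCIIhi, in a range of -0.276 to 0.0029 when 1 library was left out. Mbp in Tspan8pos MHCIIlo against Tspan8neg MHCIIhi was -0.14 after thinning, -0.061 without that library and -0.0035 with only the libraries compared, in a range of -0.061 to 0.188 when 1 library was left out. The interaction of Tg was 0.69 after thinning, 0.16 without replicate 2 of Tspan8neg MHCIIlo, 0.017 without replicate 1 of Tspan8neg MHCIIhi and 1.88 without replicate 2 of Tspan8pos MHCIIlo, in a range of -3.73 to 1.88 when 1 library was left out.

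Deviations of same-numbered libraries correlated only weakly, with values between 0.0040 and 0.0924 that were all positive. The numbers were not treated as pairs in the main fit. With the replicate number as a block, 1 gene in place of 2 was called for MHCIIhi against MHCIIlo in Tspan8pos, since Ins2 had an adjusted p of 0.0123 (edgeR), and no other call of the 8 genes changed.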
